A study of Mus musculus with 8 samples.

Results

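The gene set consists of 10 mouse genes that are normally used in germ cells, taken by symbol as named in the tables: Taf7l, Tdrd1, Sycp1, Sycp3, Hormad1, Dazl, Mael, Asz1, Rhox5 and Rhox6. They were looked up in a table of ribosome footprints (12818 genes) and a table of total RNA (13436 genes), which together hold 13838 genes. Of the 10, 7 had a row in both tables. Asz1, Rhox5 and Rhox6 had a row in neither, by symbol or by Ensembl identifier, and have no value here. All cells were J1 embryonic stem cells of the mouse strain 129S4/SvJae, kept feeder-free on gelatin in serum and leukemia inhibitory factor. The 4 groups of 2 libraries were footprints of cells infected with eIF4A2 shRNA, footprints of cells infected with control shRNA, total RNA of the eIF4A2 shRNA cells and total RNA of the control shRNA cells. Cells of both kinds were infected on the first day, spent 3 days in puromycin (1 μg/mL) and were lysed at day 4.5 after 1 min in 0.1 mg/mL cycloheximide, a drug that stops ribosomes on the mRNA. eIF4A2 is a helicase that works in translation, and the design asks what its depletion does to footprints, to RNA and to the ratio of both. An shRNA lowers its target without removing it, and which of the named shRNAs (shNT and shGFP as controls, sheIF4A2-2 and sheIF4A2-3 against eIF4A2) went into which library is not stated in the labels.

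Germ cells use a set of genes that most other cells keep off. In somatic cells and largely in embryonic stem cells, many of these genes are held silent by DNA methylation of their promoters and by a Polycomb complex, PRC1.6, whose DNA-binding subunits MGA, MAX and E2F6 recognise an E-box and an E2F site. The 10 genes cover several germ cell tasks. Taf7l is a germ cell relative of a subunit of the general transcription factor TFIID. Tdrd1 and Mael act in the piRNA pathway, which silences transposons in the male germ line, as does Asz1. Sycp1 and Sycp3 build the synaptonemal complex that holds paired chromosomes together in meiosis, and Hormad1 sits on the axes of unpaired meiotic chromosomes. Dazl is an RNA-binding protein that promotes translation in germ cells. Rhox5 and Rhox6 are homeobox genes of the reproductive cluster on the X chromosome.

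Most promoters of the set share a short sequence. The 250 bases upstream of the RefSeq transcript start (GRCm38.p6, the transcript start nearest the annotated gene edge) were found for 9 of the 10 genes, and 6 of the 9 held the E-box CACGTG, which reads the same on both strands. It stood in 6.65% of the 17492 promoters of protein-coding genes read the same way, and in 26.1% of the 69 windows of other germline genes. The motifs were chosen after some upstream sequences had been seen, so these shares describe the set and are not support for an enrichment. The E2F6 core TCCCGC, searched on both strands, stood in 3 of the 9 (33.3%), against 21.6% of all promoters. None of these matches overlapped each other. The 6 genes with an E-box were Taf7l, Tdrd1, Sycp1, Sycp3, Hormad1 and Mael, all among the 7 with values, while Dazl had neither motif in this window. The distance from the start to the first base of the nearest E-box was 11 bases in Tdrd1, 20 in Hormad1, 43 in Sycp3, 49 in Taf7l, 94 in Sycp1 and 223 in Mael. Upstream windows of 4 genes are shown because their knockdown and control values differed most, Tdrd1, Taf7l and Sycp1 being higher in the knockdown and Hormad1 lower. In the tables the 7 measured genes are ENSMUSG00000009596 (Taf7l), ENSMUSG00000025081 (Tdrd1), ENSMUSG00000040629 (Mael), ENSMUSG00000027855 (Sycp1), ENSMUSG00000020059 (Sycp3), ENSMUSG00000028109 (Hormad1) and ENSMUSG00000010592 (Dazl). Each window runs 5′ to 3′ on the gene's strand and ends 1 base before the transcript start, with capitals marking an E-box or, in Hormad1 at 95 bases from the start, the E2F6 core on the opposite strand (GCGGGA). They lie at chr19:56825959-56826208 (plus strand, Tdrd1), chrX:134476491-134476740 (minus strand, Taf7l), chr3:102936101-102936350 (minus strand, Sycp1) and chr3:95559427-95559676 (plus strand, Hormad1). The windows not shown lie at chr10:88459337-88459586 (plus strand, Sycp3), chr17:50293621-50293870 (minus strand, Dazl) and chr1:166238745-166238994 (minus strand, Mael).
Tdrd1: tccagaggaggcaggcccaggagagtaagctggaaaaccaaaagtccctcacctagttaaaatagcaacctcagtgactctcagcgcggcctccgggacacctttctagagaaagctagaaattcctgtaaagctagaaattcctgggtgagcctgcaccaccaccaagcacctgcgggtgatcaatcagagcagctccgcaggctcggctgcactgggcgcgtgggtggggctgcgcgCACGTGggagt
Taf7l: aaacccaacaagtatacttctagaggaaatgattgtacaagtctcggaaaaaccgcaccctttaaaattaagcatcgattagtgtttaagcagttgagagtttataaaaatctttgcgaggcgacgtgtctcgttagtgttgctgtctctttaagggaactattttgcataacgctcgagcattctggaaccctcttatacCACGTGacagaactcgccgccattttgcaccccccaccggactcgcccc
Sycp1: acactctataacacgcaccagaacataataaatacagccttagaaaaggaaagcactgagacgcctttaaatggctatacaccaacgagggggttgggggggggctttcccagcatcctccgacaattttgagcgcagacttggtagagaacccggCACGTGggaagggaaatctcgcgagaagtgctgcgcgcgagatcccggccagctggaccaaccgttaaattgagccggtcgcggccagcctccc
Hormad1: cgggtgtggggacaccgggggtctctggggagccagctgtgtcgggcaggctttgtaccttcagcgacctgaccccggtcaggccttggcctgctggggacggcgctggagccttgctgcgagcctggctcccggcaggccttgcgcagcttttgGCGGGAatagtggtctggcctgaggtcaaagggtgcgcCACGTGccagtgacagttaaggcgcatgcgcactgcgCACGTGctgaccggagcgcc

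Hormad1 thus carried 2 E-boxes and an E2F6 core, while Tdrd1, Taf7l and Sycp1 carried 1 E-box each, so the motif stood upstream of genes that were higher and of the 1 gene that was lower. The 9 windows held between 4 (Rhox5) and 20 (Dazl) CpG dinucleotides, with a median of 15.0, against a median of 10 over all promoters. Of the other 88 germline genes in the lists used below, 69 had an upstream window and 18 of these (26.1%) held the E-box. No binding or methylation was measured in these libraries, so a match is a description of the sequence alone.

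**Figure D1:**
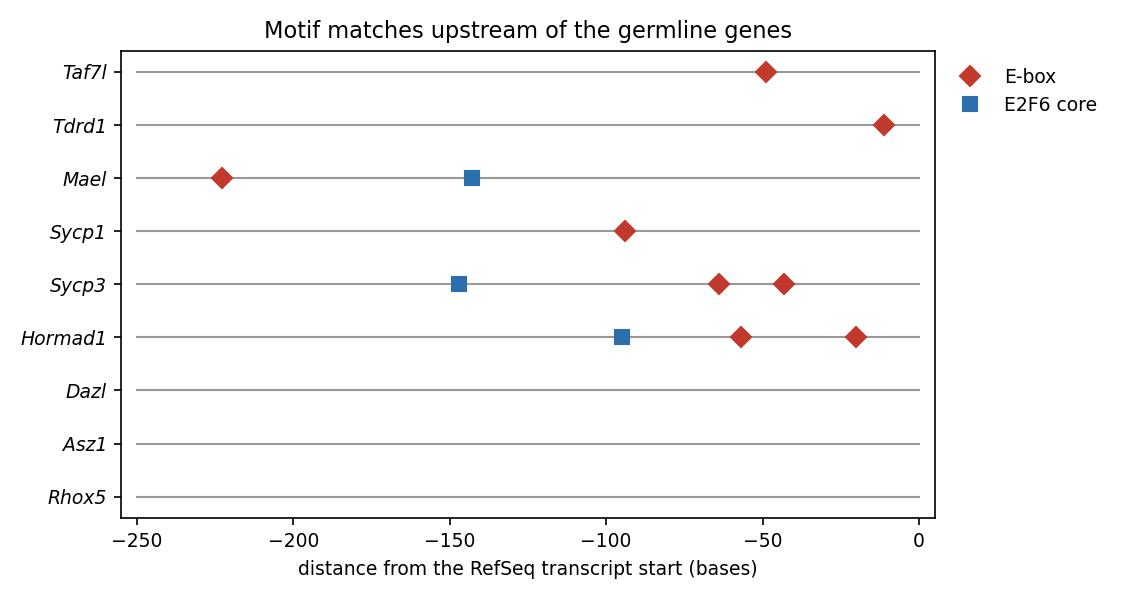
Matches to the E-box (diamonds) and to the E2F6 core (squares) in the 250 bases upstream of 9 germline genes, with distance from the RefSeq transcript start in bases on the horizontal axis and 1 line per gene. E-boxes lie 11 to 94 bases from the start in Tdrd1, Taf7l, Sycp1, Sycp3 and Hormad1 and 223 bases from it in Mael, and Dazl, Asz1 and Rhox5 have no match.

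The tables hold reads scaled to library size, written here as CPM, the usual unit of reads scaled to a common library size. Reading them back gave 7947827 to 9573832 reads in the knockdown footprint libraries and 9458103 to 10682677 in the control ones, and 12228408 to 12840349 reads in the knockdown total RNA libraries and 8564582 to 9489221 in the control ones. Eif4a2 was lower in each knockdown library than in each control library, at 310.8 and 153 CPM in knockdown footprints against 395 and 409 CPM in control footprints, and at 583 and 617 CPM in knockdown total RNA against 739 and 969 CPM in control total RNA, without passing limma's threshold in either assay. The knockdown libraries differed in Eif4a2 footprints but were near each other in Eif4a2 total RNA. The stem cell markers Pou5f1, Nanog, Sox2, Zfp42, Esrrb, Klf4, Tdgf1, Dppa5a, Utf1 and Sall4 all had values above 0 in every library. Values of the 7 germline genes rested on 15 to 188 reads per library, and exact 95% Poisson intervals are given as counting error only. In footprint control 2 the reads rest on a step of 0.0991 CPM per read, of which 100% of its nonzero values were whole multiples, against 1.49% for a step of 0.1 CPM. Differences were tested with limma on log2(CPM + 1), 2 libraries against 2, adjusted by Benjamini-Hochberg over all genes tested with a threshold of 0.05. Fold changes on this scale understate changes at low levels such as these. For a single gene an exact permutation test of 2 against 2 libraries cannot go below p = 0.333. The protocol calls the replicates biological, without saying how the cultures were kept apart.

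Taf7l, the TFIID-related gene, had more footprints in the knockdown. Its footprints were 5.74 and 6.17 CPM (51 and 59 reads) in the knockdown libraries, against 2.12 and 1.68 CPM (20 and 17 reads) in the control libraries. Both knockdown values lie far above both control values, and their counting intervals (4.27 to 7.54 and 4.70 to 7.96 CPM in knockdown libraries, 1.30 to 3.28 and 0.982 to 2.70 CPM in the control) do not touch. The knockdown pair averaged 5.96 ± 0.307 CPM and the control pair 1.90 ± 0.311 CPM (SD, n = 2 each), a ratio of 3.13. This gave a log2 fold change of 1.26 ± 0.30 (SE), with a limma adjusted p of 0.156. Only 0.597% of the 12723 genes tested in footprints had a larger log2 fold change. Total RNA of Taf7l was 5.05 and 4.88 CPM in the knockdown, against 1.94 and 3.44 CPM in the control. The groups do not overlap here either, but the control libraries differ from each other, and the log2 fold change of 0.72 ± 0.25 had a limma adjusted p of 0.282. This value was 0.43 without total RNA control 1 and 1.02 without total RNA control 2. In bulk cultures, a few cells with much Taf7l RNA and many cells with little cannot be told apart, and this holds for every gene below.

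Tdrd1, a Tudor domain protein that binds PIWI proteins in the piRNA pathway, had the largest difference of the set in total RNA. Its total RNA was 13.6 and 14.1 CPM (172 and 188 reads) in the knockdown, against 4.80 and 4.44 CPM (42 and 40 reads) in the control. The replicates of each group lie close together and the groups are about 3-fold apart (3.00 as a ratio of means). Tdrd1 total RNA had a log2 fold change of 1.40 ± 0.17 with a limma adjusted p of 0.0819, the smallest value that any of the 13436 genes reached, and Tdrd1 ranked 30th by unadjusted p. Footprints of Tdrd1 were 6.41 and 14.4 CPM (57 and 138 reads) in the knockdown, against 4.14 and 2.08 CPM (39 and 21 reads) in the control. Every knockdown value exceeds every control value, but the knockdown libraries are more than 2-fold apart, and the counting interval of knockdown 1 (4.86 to 8.31 CPM) reaches into that of control 1 (2.95 to 5.66 CPM). Footprints gave a log2 fold change of 1.43 ± 0.41 (limma adjusted p = 0.231), and 0.90 when footprint knockdown 2 was left out. In the authors' deposited table Tdrd1 was listed as higher in both assays, with an FDR of 0.0434 in footprints and 4.74e-06 in total RNA.

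Mael, the mouse Maelstrom protein, which is needed for transposon silencing in spermatocytes, was higher in the knockdown by less. Footprints were 5.29 and 6.07 CPM in the knockdown, against 3.40 and 3.67 CPM in the control. Total RNA was 12.0 and 12.4 CPM in the knockdown, against 9.25 and 10.3 CPM in the control. The groups do not overlap in either assay, yet the counting intervals of the 2 groups do. Mael had a log2 fold change of 0.56 ± 0.28 in footprints (limma adjusted p = 0.448) and 0.29 ± 0.17 in total RNA (0.475). Of the 3 piRNA pathway genes of the set, the third, Asz1, a protein of the germ granules between mitochondria, had no row.

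Sycp1, the transverse filament of the synaptonemal complex, was higher in the knockdown in both assays at low read numbers. Total RNA was 3.71 and 4.13 CPM (47 and 55 reads) in the knockdown, against 1.83 and 2.00 CPM (16 and 18 reads) in the control. The groups do not overlap there, though their counting intervals do (2.73 to 4.93 CPM in knockdown 1 against 1.18 to 3.15 CPM in control 2), with a ratio of means of 2.05 and a log2 fold change of 0.76 ± 0.20 (limma adjusted p = 0.176). Footprints were 2.70 and 7.53 CPM (24 and 72 reads) in the knockdown, against 1.59 and 2.08 CPM (15 and 21 reads) in the control. Knockdown 2 alone stands high, and the interval of knockdown 1 (1.73 to 4.02 CPM) covers the value of control 2. In footprints the log2 fold change of 0.99 ± 0.42 (limma adjusted p = 0.372) was 0.39 when footprint knockdown 2 was left out and 1.59 when footprint knockdown 1 was. Footprint knockdown 2 is also the library in which Tdrd1 footprints were highest and Eif4a2 footprints lowest. Hormad1 (5.23 CPM, against 3.15 CPM in knockdown 1) and Dazl (6.49 CPM, against 9.68 CPM) were nearer control in that library. Taf7l, Mael and Sycp3 were slightly higher in it than in knockdown 1, with overlapping counting intervals. The part of that library in these differences was not tested beyond leaving it out.

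Sycp3, a protein of the lateral elements of the same complex, differed less. Footprints were 6.86 and 7.64 CPM in the knockdown, against 4.57 and 5.55 CPM in the control. The groups do not overlap but their counting intervals do, and the log2 fold change was 0.45 ± 0.27 (limma adjusted p = 0.529). Total RNA was 5.60 and 4.06 CPM in the knockdown, against 4.23 and 5.66 CPM in the control. These 4 values interleave, and the log2 fold change of -0.03 ± 0.24 changed sign to 0.032 when columns were rescaled to equal totals and to 0.16 without total RNA knockdown 2. Sycp1 and Sycp3 thus had unlike differences in total RNA in these libraries, although their proteins belong to 1 structure, and that contrast between the genes was not tested.

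Hormad1 was the 1 gene of the set that was lower in the knockdown in both assays. Its footprints were 3.15 and 5.23 CPM (28 and 50 reads) in the knockdown, against 9.13 and 12.5 CPM (86 and 126 reads) in the control. Its total RNA was 4.58 and 5.11 CPM (58 and 68 reads) in the knockdown, against 8.56 and 12.6 CPM (75 and 114 reads) in the control. In both assays all knockdown values and their counting intervals lie below all control values and their intervals. Knockdown means were 38.8% of control in footprints and 45.7% in total RNA. The log2 fold change was -1.20 ± 0.31 in footprints (limma adjusted p = 0.187) and -0.97 ± 0.23 in total RNA (0.156). Only 0.582% of genes tested in footprints and 1.30% in total RNA had a lower log2 fold change. In the authors' deposited table Hormad1 was listed as lower in total RNA (FDR 0.00916), and its FDR in footprints was 0.0598.

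Dazl, the RNA-binding translation regulator of germ cells, pointed to opposite sides in the 2 assays. Footprints were 9.68 and 6.49 CPM (86 and 62 reads) in the knockdown, against 5.42 and 6.34 CPM (51 and 64 reads) in the control. The lower knockdown value exceeds the higher control value by less than the counting error, and the log2 fold change of 0.38 ± 0.29 (limma adjusted p = 0.622) was 0.13 without footprint knockdown 1 and 0.64 without footprint knockdown 2. Total RNA was 7.42 and 8.27 CPM in the knockdown, against 7.99 and 12.6 CPM in the control, with 1 control library high and the groups overlapping. The log2 fold change was -0.33 ± 0.25 (limma adjusted p = 0.582), -0.03 without total RNA control 2 and -0.63 without total RNA control 1, where it passed (limma adjusted p = 0.00549).

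**Figure D2:**
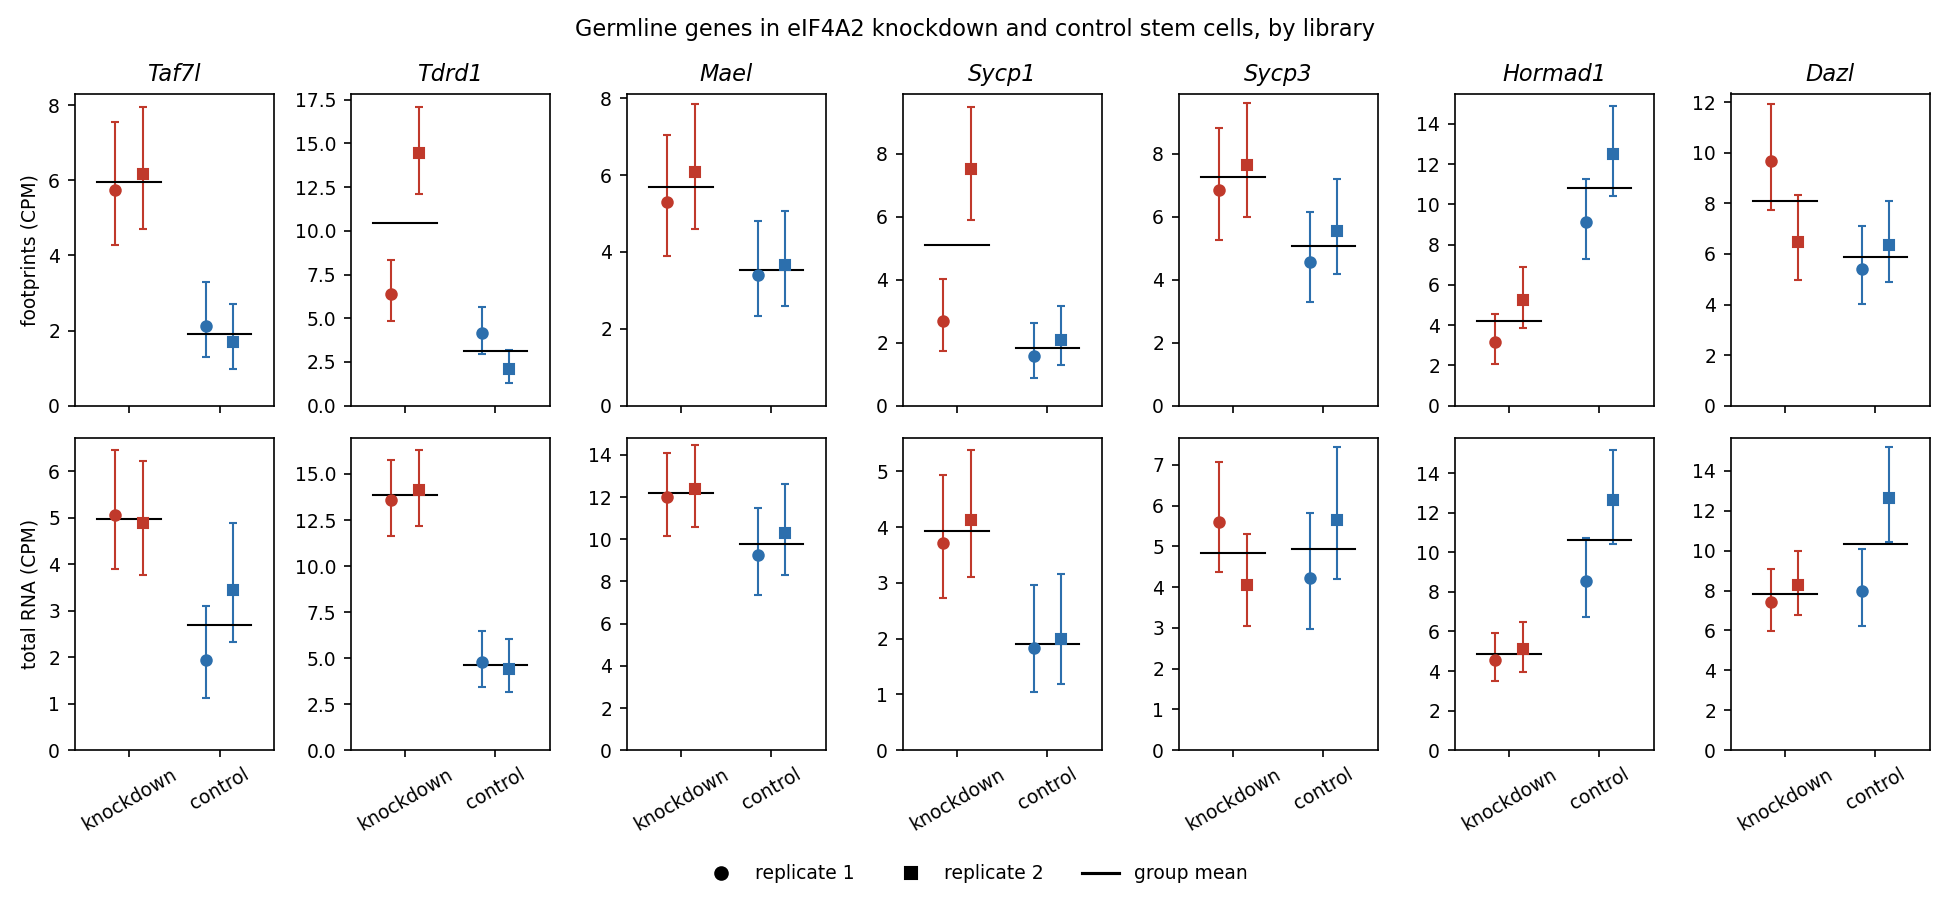
Values in CPM of the 7 germline genes with rows, footprints above and total RNA below, knockdown libraries (red) left of control libraries (blue), with circles for replicate 1, squares for replicate 2, error bars for exact 95% Poisson intervals of the reads and black lines for group means. Tdrd1 total RNA (13.6 and 14.1 CPM in the knockdown, against 4.80 and 4.44 CPM in the control) and Taf7l footprints (5.74 and 6.17 CPM in the knockdown, against 2.12 and 1.68 CPM in the control) stand apart, Hormad1 lies below control in both rows, and Sycp3 and Dazl overlap in total RNA.

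Across the 7 genes, footprints of the knockdown and control libraries did not overlap for any, with 6 higher and 1 (Hormad1) lower in the knockdown. Over all genes tested 22.3% were higher without overlap and 22.5% were lower, 44.8% in either direction. In total RNA 4 of the 7 were higher without overlap (Taf7l, Tdrd1, Mael and Sycp1), 1 was lower (Hormad1) and 2 overlapped, against 23.3% higher, 24.6% lower and 47.9% in either direction of all genes. The median log2 fold change of the 7 was 0.56 in footprints and 0.29 in total RNA, beside 0.01 and -0.00 over all genes tested. When the columns were rescaled to equal totals, the median of all genes in footprints moved to 0.12, and the 7 genes kept their directions there. The genes were chosen with earlier results of these data known, so these counts describe the set and are not support for a shared change.

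No gene of the set passed limma's threshold in footprints or in total RNA, where 0% of all genes passed in either assay. At an unadjusted p under 0.05, 3 of the 7 were higher in footprints (Taf7l, Tdrd1 and Sycp1) and 1 lower (Hormad1), against 6.12% and 6.74% of all genes, and the same 4 genes passed this level in total RNA, against 6.82% higher and 8.08% lower. In footprints no single library left out brought a gene of the set past the adjusted threshold. In total RNA the calls depended on the control libraries. Without control 1 Tdrd1 (limma adjusted p = 3.76e-06), Sycp1 (0.0128), Hormad1 (5.52e-05) and Dazl (0.00549) passed, and without control 2 Tdrd1 (3.00e-05), Sycp1 (0.0140), Hormad1 (0.0116) and Taf7l (0.00233) passed. These fits called 6188 and 3411 genes in all and rest on a lone control library that is assumed to vary like the knockdown pair. edgeR's quasi-likelihood test on the reads of total RNA called 0 genes, with an adjusted p of 0.0759 for Tdrd1, and DESeq2 called 272 genes, Tdrd1 (0.00133) being the 1 gene of the set among them. At an FDR under 0.05, the authors' deposited table listed Tdrd1 as the 1 gene of the 7 that was higher in footprints and 0 as lower, against 0.788% and 0.889% of all genes. In total RNA the authors' deposited table listed 1 of the 7 as higher (Tdrd1, against 2.21% of all genes) and 1 as lower (Hormad1, against 3.19%).

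**Figure D3:**
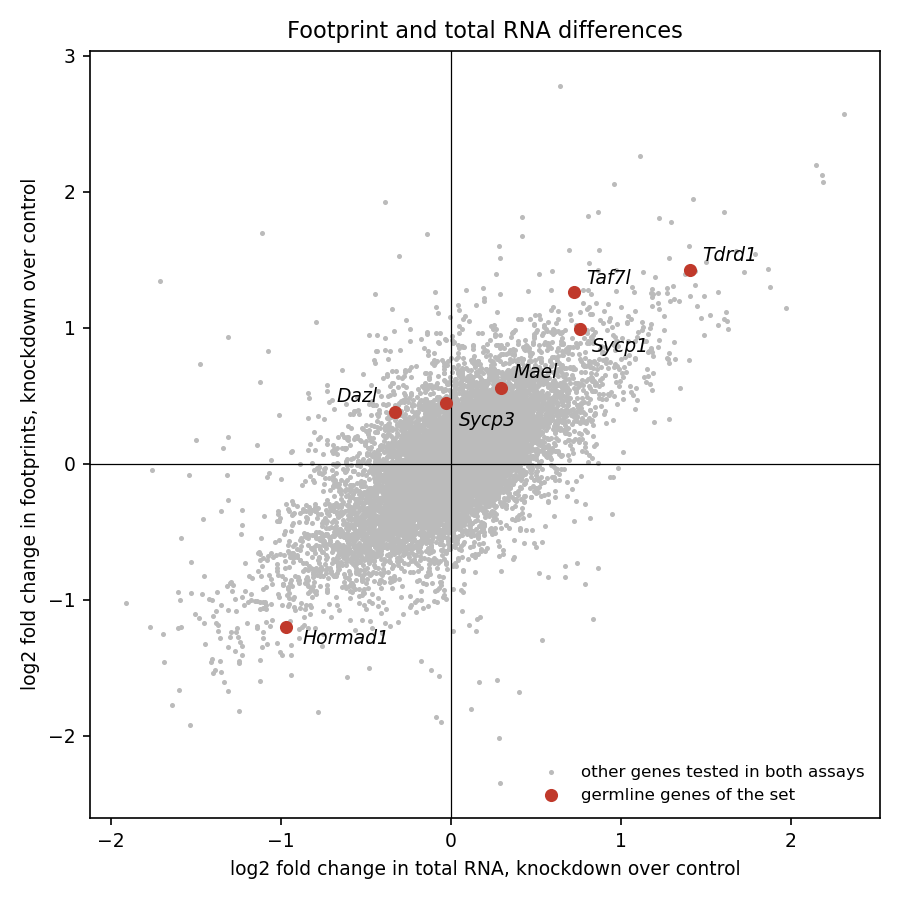
Log2 fold changes of knockdown over control in total RNA (horizontal) and footprints (vertical) on the log2(CPM + 1) scale, for all 12358 genes tested in both assays (grey) and the 7 germline genes (red). Tdrd1, Taf7l, Sycp1 and Mael lie in the upper right, Hormad1 in the lower left, and Dazl has a positive value in footprints and a negative one in total RNA, as does Sycp3 with a total RNA value near 0 whose sign changed to 0.032 under equal totals.

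The ratio of footprints to total RNA asks whether ribosome occupancy changed beyond the RNA. The tables were scaled separately, so a ratio across them has no absolute meaning and is set beside that of all genes. Taf7l had a ratio of group means of 1.20 in the knockdown and 0.708 in the control, Sycp3 one of 1.50 in the knockdown and 1.02 in the control, and Dazl one of 1.03 in the knockdown and 0.570 in the control. Sycp1 had 1.30 in the knockdown and 0.961 in the control, Mael 0.465 in the knockdown and 0.361 in the control, and Tdrd1 0.753 in the knockdown and 0.674 in the control. Hormad1 was the 1 gene with a lower ratio in the knockdown (0.865) than in the control (1.02). Over all 12358 genes the median ratio was 0.799 in the knockdown and 0.793 in the control. Mael had a low ratio in control cells, with 9.06% of genes below it, while the other 6 lay between the 27.0th percentile (Dazl) and the 69.4th (Sycp3). Total RNA reads cover whole transcripts and footprints mainly the coding part, so these ratios also carry the length of untranslated sequence.

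A limma fit over all 8 libraries gave the change in this ratio as its assay by knockdown interaction. Its log2 value was 0.71 ± 0.38 (SE) for Dazl, 0.54 ± 0.37 for Taf7l, 0.48 ± 0.35 for Sycp3, 0.26 ± 0.30 for Mael, 0.23 ± 0.50 for Sycp1, 0.02 ± 0.50 for Tdrd1 and -0.23 ± 0.40 for Hormad1. Of the 7 values 6 were positive, with a median of 0.26, beside 49.2% positive and a median of -0.00 over all genes. No gene of the set passed at an unadjusted p under 0.05 (the smallest was 0.0950, for Dazl), a level that 1.55% of all genes reached, and 0 of all genes passed after adjustment. The signs for Tdrd1, Sycp1 and Hormad1 changed with the library left out: Tdrd1 had -0.51 and Sycp1 -0.37 without footprint knockdown 2, and Hormad1 had 0.060 without footprint knockdown 1. The larger values moved as well: Dazl had 0.41 without total RNA control 2 and 0.45 without footprint knockdown 1, Taf7l had 0.24 without total RNA control 2 and 0.84 without total RNA control 1, and Sycp3 had 0.29 without total RNA knockdown 2 and 0.30 without total RNA control 2. With standard errors of 0.30 to 0.50 on the log2 scale, small changes of the ratio were not detectable for these genes.

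**Figure D4:**
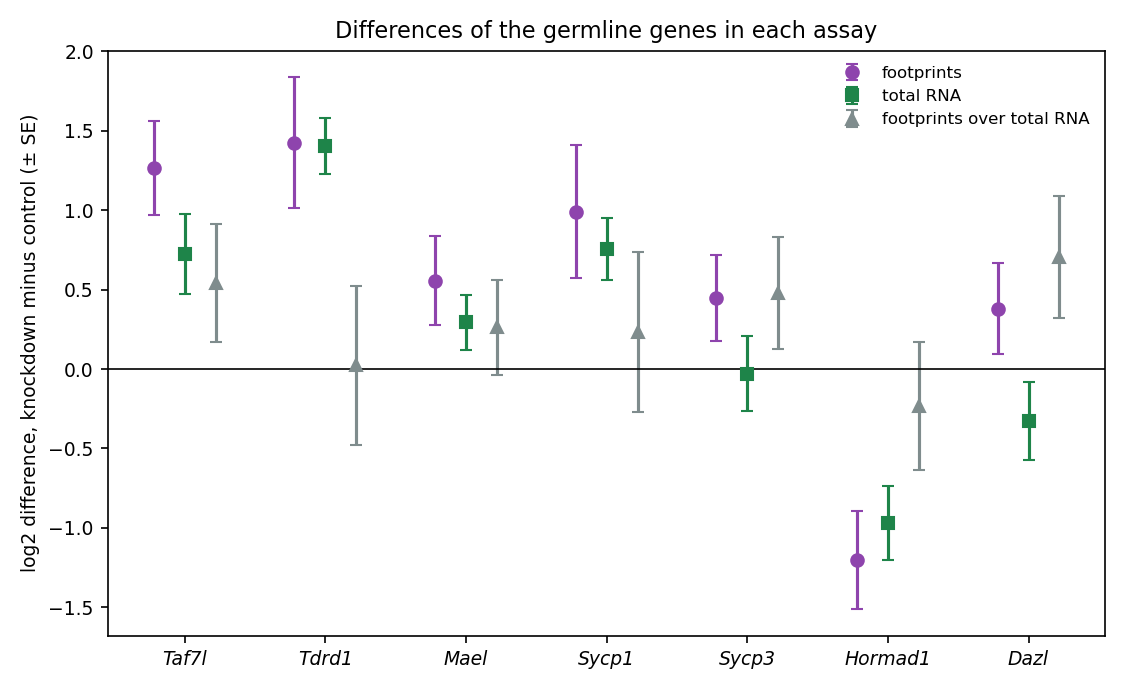
Log2 differences of knockdown minus control with standard errors for the 7 germline genes, in footprints (purple circles), in total RNA (green squares) and for footprints over total RNA (grey triangles). Tdrd1 has like values in both assays (1.43 and 1.40) and a ratio change near 0, while Dazl has 0.38 in footprints and -0.33 in total RNA.

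Other genes of the same pathways had values in both directions. Lists of 88 further germline genes were read, of which 58 were tested in footprints and 60 in total RNA. None passed limma's threshold. In footprints 28 were positive and 30 negative (median -0.01), and in total RNA 32 were positive and 28 negative (median 0.09), beside 50.6% positive and 49.4% negative values over all genes in footprints and 49.7% and 50.3% in total RNA. The authors' deposited table listed 0 of them in footprints, against 0.788% of all genes as higher and 0.889% as lower. In total RNA the authors' deposited table listed 4 of 60 as higher (Ddx4, Tdrd5, Tdrkh and Nanos3), against 2.21% of all genes, and 3 as lower (Piwil4, Smc1b and Kit), against 3.19%.

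Among the further piRNA pathway genes, 9 of 17 were positive in total RNA and 8 of 16 in footprints. The 3 at the highest level, chosen by level, were Piwil2, Rnf17 and Tdrd12. Piwil2, a PIWI protein, had a log2 fold change of -0.01 ± 0.22 (footprints) and 0.12 ± 0.14 (total RNA), Rnf17, a Tudor protein, had 0.23 ± 0.22 and 0.52 ± 0.15, and Tdrd12, another, had -0.57 ± 0.21 and -0.15 ± 0.17. Tdrd5, a Tudor protein of germ granules like Tdrd1, had 10.1 and 11.4 CPM of total RNA in the knockdown, against 5.37 and 4.77 CPM in the control (0.95 ± 0.18 on the log2 scale, limma adjusted p = 0.12). Tdrkh, the Tudor partner of PIWI proteins on mitochondria, had 12.1 and 14.2 CPM in the knockdown, against 6.97 and 3.99 CPM in the control (1.16 ± 0.27, limma adjusted p = 0.144). Piwil4, the nuclear PIWI protein, went the other way, with 0.868 and 1.35 CPM in the knockdown, against 7.31 and 4.55 CPM in the control (-1.70 ± 0.27, limma adjusted p = 0.105). Tdrd5 and Tdrkh were thus also above control, while Piwil4 lay below it in every knockdown library.

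Among further synaptonemal and axis genes 4 of 9 were positive in footprints and 6 of 10 in total RNA. Syce1, of the central element, had 0.34 ± 0.19 in footprints and 0.39 ± 0.23 in total RNA, its partner Syce2 had -0.61 ± 0.19 and -0.22 ± 0.14, and Trip13, the ATPase that removes HORMAD proteins from chromosome axes, had 0.30 ± 0.17 and 0.27 ± 0.17. Of the 3 meiotic cohesins measured, 2 were negative in both assays. Smc1b was below control like Hormad1, with total RNA of 6.55 and 8.94 CPM in the knockdown, against 17.2 and 18.1 CPM in the control (-1.11 ± 0.20, limma adjusted p = 0.114). Stag3 had -0.46 ± 0.17 in footprints and -0.47 ± 0.13 in total RNA, and Rec8 had 0.49 ± 0.26 and 0.49 ± 0.21. Recombination and meiotic entry genes were evenly split in footprints (6 positive and 6 negative), with 8 of 13 positive in total RNA, and Mlh3, Psmc3ip and Mnd1, the 3 at the highest level, had values between 0.07 and 0.27 in footprints and between -0.13 and 0.25 in total RNA.

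Of the further germ cell RNA-binding and specification genes, 9 of 16 were positive in footprints and 8 of 16 in total RNA. Nanos3, an RNA-binding protein that keeps primordial germ cells alive, had total RNA of 6.47 and 6.39 CPM in the knockdown, against 3.31 and 3.22 CPM in the control (0.80 ± 0.18, limma adjusted p = 0.144). Kit, the receptor tyrosine kinase of germ cell precursors, had 62.6 and 61.2 CPM in the knockdown, against 109.6 and 89.7 CPM in the control (-0.67 ± 0.15, limma adjusted p = 0.143). Tfap2c, a transcription factor of germ cell specification, had 0.33 ± 0.17 in footprints and 0.34 ± 0.15 in total RNA, and Tex19.1, which acts against transposons in germ cells, had 0.51 ± 0.18 and 0.21 ± 0.20.

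Of 21 Rhox genes listed, 3 had a row in footprints and 2 in total RNA, so the reproductive homeobox cluster is little covered. Rhox13 had 5.74 and 6.49 CPM of footprints in the knockdown, against 4.04 and 3.77 CPM in the control (0.54 ± 0.28, limma adjusted p = 0.458). Rhox10 had 1.13 and 6.17 CPM in the knockdown, against 4.14 and 4.26 CPM in the control, with the knockdown libraries on both sides of the control.

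Factors listed as silencers of germline genes or, as Morc1, of transposons had values on both sides as well. Their part in the values of the germline set was not tested. The de novo DNA methyltransferases Dnmt3a (305 and 356 CPM in the knockdown, against 188 and 164 CPM in the control, in footprints) and Dnmt3b (334 and 457 CPM in the knockdown, against 243 and 262 CPM in the control) were higher, with log2 fold changes of 0.90 ± 0.17 for Dnmt3a (limma adjusted p = 0.106) and 0.63 ± 0.19 for Dnmt3b (0.248). Morc1, which silences transposons in male germ cells, had 54.6 and 76.8 CPM of footprints in the knockdown, against 172 and 229 CPM in the control (-1.60 ± 0.22, limma adjusted p = 0.0692). In footprints the authors' deposited table listed 1 of the 23 silencers as higher (Dnmt3a, FDR 0.0223), against 0.788% of all genes. It listed 1 as lower (Morc1, 2.36e-06), against 0.889%. In total RNA the authors' deposited table listed 2 of the 23 as higher (Dnmt3a, FDR 1.60e-05, and Dnmt3b, 0.00071), against 2.21% of all genes. It listed 2 as lower (Morc1, 5.71e-07, and Cbx3, a heterochromatin protein, 0.00856), against 3.19%. Cbx3 total RNA was 208 and 204 CPM in the knockdown, against 303 and 411 CPM in the control. Of the 23 silencers listed 9 were positive and 14 negative in footprints, 11 were positive and 12 negative in total RNA, and 0 passed limma's threshold in either assay. Dnmt1, Uhrf1 and Dnmt3l, at the highest levels, had footprint values of 0.16 ± 0.18, -0.02 ± 0.19 and -0.52 ± 0.21. Of the DNA-binding subunits of PRC1.6, Mga had -0.24 ± 0.17 in footprints and -0.38 ± 0.13 in total RNA. Max had -0.10 ± 0.20 and 0.39 ± 0.27, and E2f6 had -0.23 ± 0.26 and 0.01 ± 0.15.

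Markers of other cells were read beside these results. The 8 markers of primordial germ cells, among them Dazl, summed to 220 and 239 CPM in knockdown footprints, against 254 and 252 CPM in control footprints. In total RNA they summed to 199.7 and 213 CPM in the knockdown, against 224 and 214 CPM in the control. Kit, the marker at the highest level that was lower in the knockdown, had 73.7 and 76.2 CPM in knockdown footprints, against 107.6 and 119 CPM in control footprints. Dnd1 was lower as well, at 23.1 and 23.5 CPM in knockdown footprints, against 36.4 and 36.6 CPM in control footprints, as was Prdm1. Leaving out only Kit raises the knockdown side by itself, so the next sums are a description only. Summed without Kit, a choice made after seeing the values, the other 7 had 146 and 163 CPM in knockdown footprints, against 146 and 133 CPM in control footprints, and 137 and 151 CPM in knockdown total RNA, against 114 and 124 CPM in control total RNA. Of the 8 markers 5 were positive in footprints and 4 in total RNA. Nanos3, Ddx4, Tfap2c and Dppa3 were above control in each knockdown library in both assays (Ddx4 footprints by as little as 26.1 CPM in knockdown 1 against 25.9 CPM in control 1), Kit, Dnd1 and Prdm1 were below it in both, and none of the 8 was at 0. Of all genes 44.8% in footprints and 47.9% in total RNA had groups without overlap in either direction.

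The 2-cell-like markers, of which 9 of 12 had rows, had 8 positive values and 1 negative value (Eif1a) in each assay. Over all genes 50.6% of values were positive in footprints and 49.7% in total RNA. The 9 markers summed to 138 and 151 CPM in knockdown footprints, against 90.3 and 126 CPM in control footprints, and to 255 and 292 CPM in knockdown total RNA, against 208 and 322 CPM in control total RNA. Eif1a supplied most of these sums, so they mainly follow that gene and say little on the other 8. Summed without Eif1a, again a choice made after seeing the values, the other 8 had 46.7 and 69.8 CPM in knockdown footprints, against 17.3 and 18.0 CPM in control footprints, and 54.2 and 91.5 CPM in knockdown total RNA, against 28.3 and 29.5 CPM in control total RNA, with no overlap in either assay. The groups overlapped for Eif1a in both assays. It had 91.1 and 80.9 CPM in knockdown footprints, against 73.0 and 108 CPM in control footprints. In total RNA it had 201 and 201 CPM in the knockdown, against 180 and 293 CPM in the control. Eif1a was left out as the marker at the highest level with a negative log2 fold change. That choice raises the knockdown side by itself, so these sums are a description only. With all 9 markers the footprint sums did not overlap and the total RNA sums did. In footprints the authors' deposited table listed 3 of the 9 as higher (Zscan4d, Zscan4f and Usp17le), against 0.788% of all genes. In total RNA it listed 4 (these 3 and Zscan4c), against 2.21%. Zscan4f had the largest ratio of means in footprints, 6.40, with 13.1 and 18.6 CPM in the knockdown, against 2.87 and 2.08 CPM in the control (limma adjusted p = 0.0692).

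The 10 stem cell markers summed to 5382 and 5364 CPM in knockdown footprints, against 7557 and 7167 CPM in control footprints. In total RNA they summed to 5090 and 5108 CPM in the knockdown, against 6493 and 7217 CPM in the control. In each assay 8 of 10 were negative, against 49.4% of all genes in footprints and 50.3% in total RNA. Utf1 and Sall4 were positive. Zfp42, at the highest footprint level, was listed as lower in both assays in the authors' deposited table (FDR 0.0238 and 6.18e-04). Klf4 was listed as lower in total RNA (FDR 0.0174). Of all genes that table listed 0.889% as lower in footprints and 3.19% in total RNA.

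Sums of the markers of 3 further cell types overlapped between the groups in footprints and in part did not in total RNA. Trophoblast markers (6 of 9 with rows, and no row for Cdx2, Elf5 and Tpbpa) summed to 59.7 and 70.5 CPM in knockdown footprints, against 61.2 and 50.7 CPM in control footprints. Feeder fibroblast markers (4 of 8 with rows, and no row for Col3a1, Lum, Dcn and Postn) summed to 19.0 and 17.6 CPM in knockdown footprints, against 24.1 and 15.6 CPM in control footprints. Primitive endoderm markers (6 of 8 with rows) summed to 24.9 and 18.2 CPM in knockdown footprints, against 25.2 and 21.4 CPM in control footprints. In total RNA the trophoblast sums (4 of 9 with rows) did not overlap and were lower in the knockdown, at 34.3 and 34.9 CPM, against 36.5 and 39.7 CPM in the control. Taken singly, 0 of these 4 genes had groups without overlap, against 47.9% of all genes, and 1 was positive and 3 negative. Primitive endoderm sums in total RNA (5 of 8 with rows) did not overlap either and were higher, at 17.3 and 18.2 CPM in the knockdown, against 15.1 and 14.1 CPM in the control, while fibroblast sums overlapped, at 10.9 and 11.1 CPM in the knockdown, against 21.0 and 9.54 CPM in the control. Of the 5 endoderm markers 3 were positive and 2 negative (Pdgfra and Gata6) in total RNA. The authors' deposited table listed 1 of the 5 as higher (Dab2, FDR 0.00689), against 2.21% of all genes, and 0 as lower. The part of any of these cells in the differences of the germline genes was not tested.

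Dazl had the most reads in its lowest library (51) of the 7 genes and was used to look for genes of like pattern. Over the 8 libraries, with log2 values centred within each assay, the genes closest to it among 12358 were Gnptg (Pearson r = 0.985), Ebf4 (0.980) and Grpel2 (0.967). Within a library all genes share 1 depth and scaling, and with 8 points and this many genes such correlations are a description only.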

How the data were processed

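Mouse J1 embryonic stem cells were profiled by ribosome footprints and total RNA, 4 groups of 2 libraries. The library columns hold a signal close to CPM, which the authors scaled by effective library sizes. Reads were recovered from the steps of each column (100% of genes whole within 0.01 read). In footprint control 2 the value of 1 read (0.0991 CPM) lies near 0.1, and an automatic check for rounding could not accept it, so no count test used this column. The authors also deposited log2 fold changes, a likelihood ratio score and p-values with FDR. Tools listed in the submitters' processing notes, without roles, are HTSeq 0.11.2, TopHat2 2.1.1, edgeR 3.26.8 and Bowtie 1.2.3, and the build is mm9. A gene without a row has no value or limit here.

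From these values limma 3.58.1 (R 4.3.3, variance trend) was fitted on log2(CPM + 1) for genes kept by filterByExpr of edgeR 4.0.16 (minimum count 10, total 15), 12723 in footprints, 13436 in total RNA and 12358 in both. edgeR and DESeq2 1.42.0 on the reads were alternatives. Only the limma fit of total RNA was tried on simulated reads, and the other fits were not. Members and lists were chosen with earlier results of these data known, and the motifs after some upstream sequences had been seen. Genes named from the germline and silencer lists are the 3 non-members with the highest mean level. Those that the authors' table lists were named after their values were seen. Mga, Max and E2f6 were also named, as the PRC1.6 subunits introduced above. Cell type marker lists are given mainly as sums, and not every gene of this rule is named from them. Promoters are RefSeq, GRCm38.p6.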

Additional observations from a re-analysis of the deposited data

How the results depend on the processing

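Over all genes limma called 0 in footprints, against 21 with columns rescaled to equal totals, 89 with all 8 libraries in one fit, 1 to 57 with 1 library left out, and 3 by edgeR's quasi-likelihood test without footprint control 2. In total RNA it called 0, against 97 with all 8 libraries, 272 by DESeq2 and 34 to 6188 with 1 library left out. For translational efficiency it called 0, and 0 to 1 with 1 library left out. Of the germline genes 0 passed in total RNA, against 1 by DESeq2 and 0 to 4 with 1 library left out. Which cause lies behind these shifts was not tested. The replicate block raised the calls to 21 in footprints and 636 in total RNA, with 2 germline genes (Tdrd1 and Hormad1) among those in total RNA, and left translational efficiency at 0, also with library pairs taken as 1 culture, an alternative chosen after seeing the data. Nothing in the labels pairs the numbers, and deviations of same-numbered libraries correlated at 0.231 in footprints and -0.275 in total RNA. Of 259 values of single germline genes under alternatives 238 kept direction and side of the threshold, 11 passed it and 10 reversed. Sycp3 in total RNA reversed to 0.032 with equal totals, 0.16 without knockdown 2 and 0.15 without control 2 (range -0.22 to 0.16). In translational efficiency Tdrd1 reversed to -0.51 without footprint knockdown 2, -0.35 without footprint control 2, -0.00 without total RNA knockdown 1 and -0.02 without total RNA control 1 (range -0.51 to 0.55), Sycp1 to -0.37 without footprint knockdown 2 (range -0.37 to 0.84), and Hormad1 to 0.060 without footprint knockdown 1 and 0.02 without total RNA control 1 (range -0.53 to 0.060). The low read numbers, 15 to 188 per library, limit all of these values.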
